A study of Homo sapiens with 6 samples.

Results

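The proteins that recognise double-stranded RNA inside human cells, and the adaptor, kinase and transcription factors that relay their signal, were examined in AGS cells that had received an siRNA against C1GALT1. Their 10 genes were RIGI, IFIH1, DHX58, TLR3, EIF2AK2, ADAR, MAVS, TBK1, IRF3 and IRF7. They were chosen for their function, with earlier results of these data known. Every array probe whose RefSeq accession belongs to one of them was taken. This gave 16 of the 58195 probes tested, for 10 of the 22438 genes with a symbol.

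AGS is a human gastric adenocarcinoma line. C1GALT1 is the galactosyltransferase that extends the first sugar of mucin-type O-glycans on glycoproteins. RNA was taken 48 h after transfection, either with a nontargeting siRNA (si-Control) or with 1 of the study's siRNAs against C1GALT1 (si-C1GALT1-3), and each group had 3 samples on 1 one-colour Agilent array each. The comparison addresses which genes respond when C1GALT1 is lowered. Both groups therefore consisted of the same line in the same serum-containing medium, and cells of both groups had taken up a synthetic double-stranded RNA with a lipid transfection reagent. Untransfected cells and other C1GALT1 siRNAs are not among these samples, so the response to the loss of C1GALT1 and to the sequence of this siRNA cannot be told apart. The 2 arrays with the same replicate number shared a slide, with si-Control always in the first column and si-C1GALT1-3 in the second, and treatment therefore cannot be told apart from place on the slide either. The labels do not say whether replicates were separate cultures, and p-values measure the spread between these samples only.

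RIG-I, MDA5 and LGP2, encoded by RIGI, IFIH1 and DHX58, are helicases that bind double-stranded RNA in the cytosol. RIG-I and MDA5 then act on MAVS, an adaptor on mitochondria, through which the kinase TBK1 phosphorylates the transcription factors IRF3 and IRF7, and these switch on type I and type III interferon genes. TLR3 detects double-stranded RNA in endosomes and signals through its own adaptor, TICAM1. EIF2AK2 encodes PKR, a kinase that halts translation when it binds double-stranded RNA, and ADAR encodes an enzyme that edits adenosines in such RNA and so keeps the cell's own duplexes from the sensors. Many of these genes are themselves induced by interferon, which forms a feedback loop; MAVS, TBK1 and IRF3 are not usually counted among them.

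On single arrays 66.2% to 72.7% of the gene spots exceeded background clearly, none was saturated, and the number of arrays limits the precision. C1GALT1 itself had a normalized log2 signal of 12.22, 13.03 and 12.62 in si-Control replicates 1, 2 and 3, and of 11.76, 11.98 and 11.13 in the si-C1GALT1-3 replicates. The groups did not overlap, but the log2 fold change of -1.0 (standard error 0.31) had an adjusted p of 0.265 in limma, by Benjamini-Hochberg over every probe tested, and did not pass the threshold used here, p under 0.01 with a change of at least 2-fold. All 7 epithelial markers were well above background on all 6 arrays, and 1 of them, ELF3, passed the threshold with a log2 fold change of 1.04, from 2 si-Control arrays, and did not pass with the replicate number as a block. Of 9 measured markers of leukocytes, endothelium and fibroblasts, 5 were well above background on all 6 arrays (PTPRC, CD3E, CD14, VWF and COL1A1), 2 were so on none (COL1A2 and LUM), and none passed the threshold. All samples were cultures of the AGS line, and what the signal of these marker probes stands for was not tested.

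The array of si-Control replicate 2 had a dark region in its centre. Before normalization, the log2 signal there minus the mean of the other si-Control arrays had a median of -2.19, against -0.06 elsewhere on the array. A rectangle around this region, with 9712 gene spots or 15.9% of all, was set to missing on that array. Of the 16 probes, 2 lay in this rectangle. The brightest IRF3 probe lay deep in it and the IRF7 probe near its lower right corner, so both genes have 2 si-Control values and 3 si-C1GALT1-3 values.

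**Figure D1:**
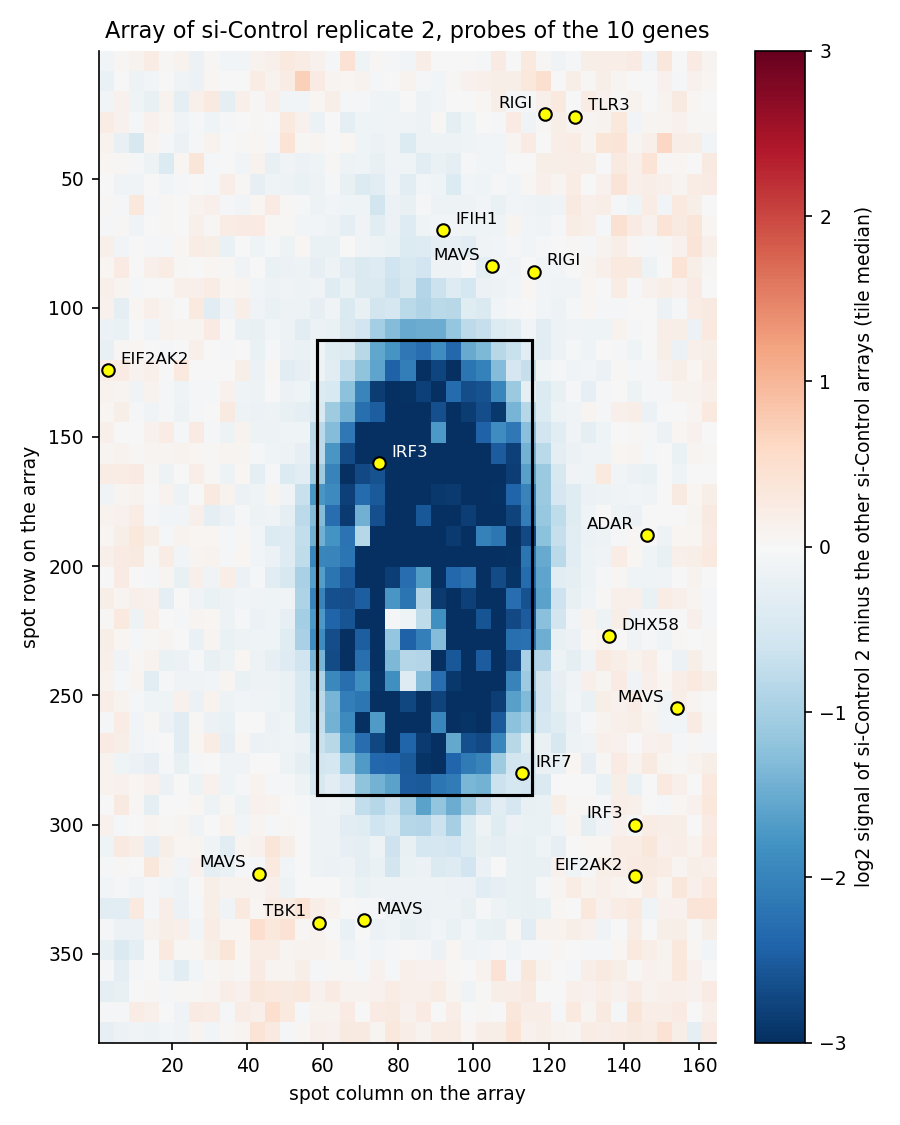
The array of si-Control replicate 2 by spot column and row, with colour for the median log2 signal, before normalization, minus the mean of the other si-Control arrays in tiles of spots, the black frame for the spots set to missing, and yellow points for the 16 probes. IRF3 has 1 probe in the dark centre and 1 outside the frame, the IRF7 probe lies in a pale corner of the frame, and the other probes are outside it.

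TLR3 rose in si-C1GALT1-3 cells, and it was the only gene of the 10 whose brightest probe passed the threshold. The brightest probes of all 10 genes were well above background on all 6 arrays. Their log2 fold changes ranged from 0.08 for MAVS to 1.95 for TLR3, with a median of 0.42, whereas the median over all named genes was 0.02. All 10 changes were above 0, as were those of 11761 of the 22438 named genes; MAVS turned to -0.0095 when the dark region was kept. Over all probes tested, 1.65% passed the threshold as higher and 0.991% as lower. At 1 probe per gene, 466 of the 22438 named genes passed as higher and 299 as lower, and of the 10 genes 1 passed as higher and 0 as lower. Of the 16 probes, 2 passed as higher, TLR3 and the dimmer of the RIGI probes, and none as lower. In 7 of the 10 genes every si-C1GALT1-3 value lay above every si-Control value. This held for 11.0% of all probes and, at 1 probe per gene, for 3146 of the 22438 named genes. IRF3 and IRF7, with only 2 si-Control values, are among the 7. An unadjusted p under 0.05 in limma was reached by 3 genes, TLR3, IFIH1 and TBK1, all higher, and by 0 genes as lower. Over all 58195 probes, 8028 reached it in either direction, and 7.37% reached it as higher. An adjusted p under 0.05 in the same direction was reached by TLR3 only, against 0.0584% of all probes. Because RNA came from whole cultures, a change in each cell and a change in the share of cells that carry the transcript cannot be told apart.

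**Figure D2:**
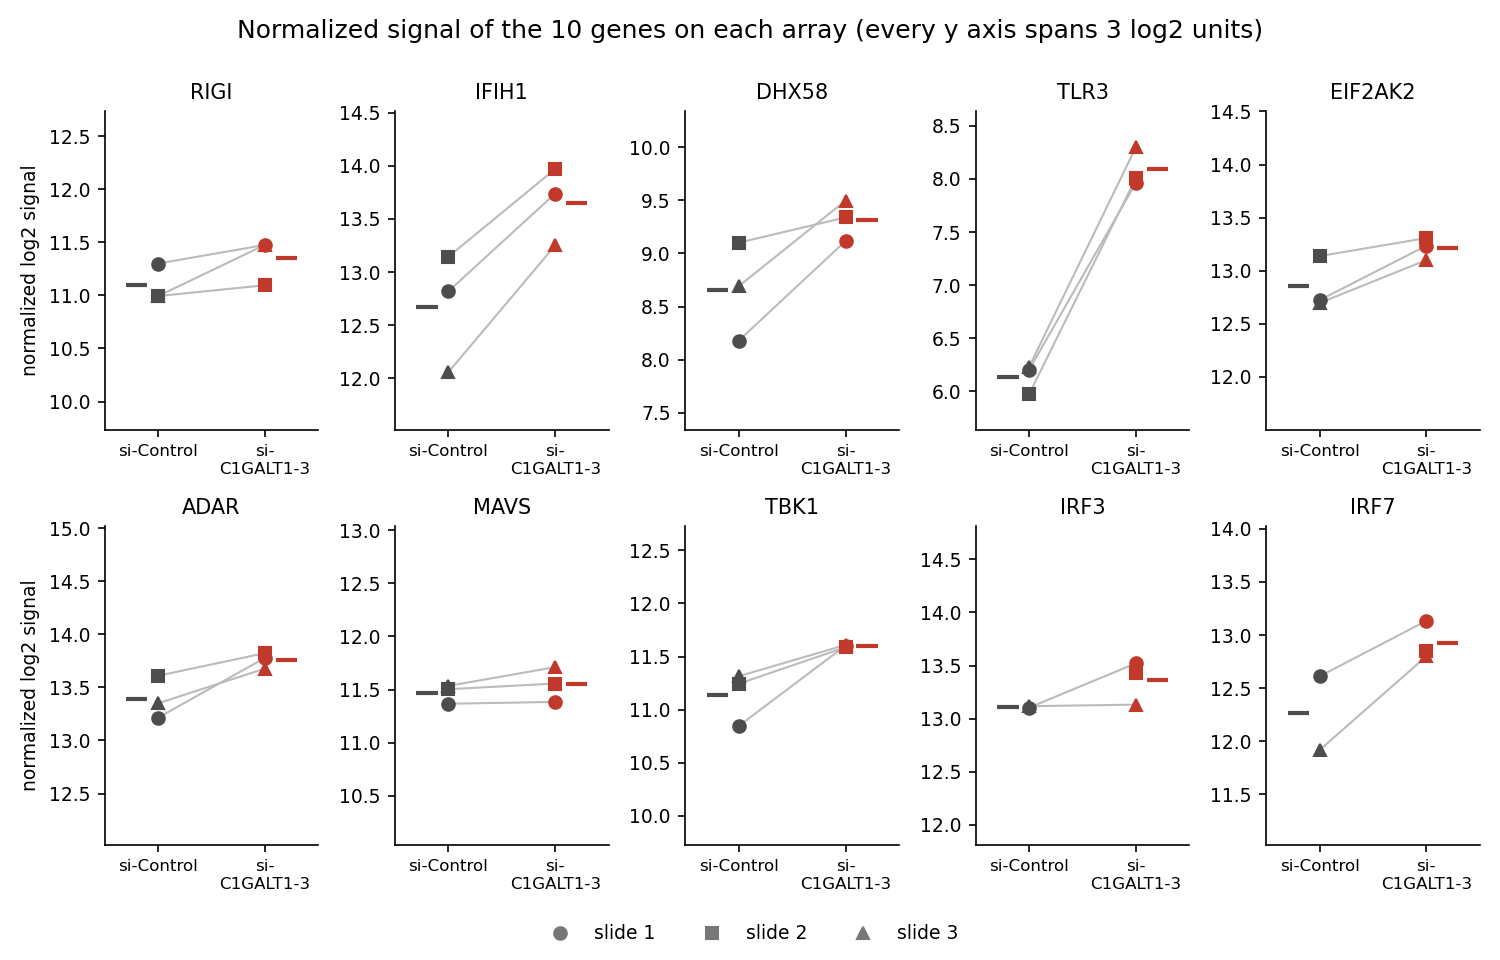
Normalized log2 signal of the brightest probe of each gene on every array, with grey points for si-Control, red points for si-C1GALT1-3, a marker shape and a connecting line for each slide, and short bars for group means; each y axis spans 3 log2 units around its own gene. TLR3 is near 6 on the si-Control arrays and near 8 on the si-C1GALT1-3 arrays, while the 2 groups of MAVS, RIGI and EIF2AK2 overlap.

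Among the sensors, TLR3 (probe A_23_P29922, accession NM_003265) had normalized log2 signals of 6.20, 5.98 and 6.23 in si-Control and of 7.97, 8.01 and 8.30 in si-C1GALT1-3 samples. The groups lay far apart relative to their spread, with SDs of 0.14 and 0.18 (n = 3 each). The log2 fold change was 1.95 (standard error 0.16), or 3.87-fold with a 95% interval of 2.95 to 5.09. Though well above background on every array, this probe was the dimmest of those examined. Its si-Control intensities before normalization were 99, 65 and 51. The interval does not cover the choice of background correction, and with a different one (normexp) the log2 fold change was 1.39. In the setting used, the adjusted p of TLR3, 0.0499 from limma with Benjamini-Hochberg adjustment, was the smallest on the array. It was shared by 49 of the 58195 probes. Over the 17 alternative settings TLR3 kept its direction and passed p under 0.01 with 2-fold in all 17, with log2 fold changes from 1.39 to 2.03, but its adjusted p ranged from 0.0109 to 0.323 and was under 0.05 in 4 of them. The study placed TLR3 in an immune gene group that was drawn from these same arrays, which is not independent evidence of its direction.

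IFIH1, which encodes MDA5, a sensor of long double-stranded RNA, had the next largest difference. Its probe (A_23_P68155, NM_022168) gave 12.82, 13.15 and 12.06 in si-Control and 13.74, 13.97 and 13.25 in si-C1GALT1-3 samples. The lowest si-C1GALT1-3 value was just above the highest si-Control value, and on each slide the si-C1GALT1-3 array was higher, by 0.92, 0.83 and 1.19 on the log2 scale. The log2 difference of 0.98 (standard error 0.34, 95% interval 0.13 to 1.83) missed the threshold, with an adjusted p of 0.306 in limma. The slides had the same order in both groups, slide 2 highest and slide 3 lowest, and with the replicate number as a block the standard error was 0.13 and the unadjusted p under 0.01 (adjusted p = 0.181 in limma), so that the difference, at 1.97-fold, missed only the 2-fold criterion. It passed under 1 alternative, a different background correction (normexp), at 1.04.

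The promoters of 7 of the 10 genes are in the RefSeq table used here, which uses GRCh38.p14; those of DHX58, IRF3 and IRF7 are named only. The 250 bases before the transcription start were searched for the core of the interferon-stimulated response element, at which interferon regulatory factors bind, as GAAANNGAAA on either strand. The IFIH1 promoter is shown because it was the only one of the 7 genes with a match, which 3.02% of the 35116 promoters in the table held. A match is a stretch of letters and was not tested for binding. The stretch (chr2:162318685-162318883, minus strand, written 5′ to 3′ along the gene) held 3 matches, in capitals. A pair of them overlap, start 159 and 153 bases before the start and lie on the opposite strand. The third starts 21 bases before it on the strand of the gene.
IFIH1: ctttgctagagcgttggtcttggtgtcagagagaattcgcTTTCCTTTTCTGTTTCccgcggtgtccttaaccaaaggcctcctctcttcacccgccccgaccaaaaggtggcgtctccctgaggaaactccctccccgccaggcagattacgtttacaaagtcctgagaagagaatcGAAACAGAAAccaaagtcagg

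RIGI encodes RIG-I, which detects short duplexes with a triphosphate end, and its probes gave different sizes of change. The brighter probe (A_33_P3372910, NM_014314) had log2 signals of 11.30, 10.99 and 10.99 in si-Control and of 11.47, 11.10 and 11.47 in si-C1GALT1-3 samples. These groups overlapped, and the log2 difference was 0.25 (standard error 0.18, adjusted p = 0.594 in limma), or 0.38 without si-C1GALT1-3 replicate 2. The dimmer probe (A_33_P3418170), annotated to the same accession, had 9.55, 10.00 and 9.43 in si-Control and 10.61, 10.68 and 10.71 in si-C1GALT1-3 samples. Here the groups did not overlap, the si-C1GALT1-3 values were close together (SD 0.05, against 0.30 in si-Control, n = 3 each), and the log2 fold change of 1.00 (standard error 0.19) passed the threshold with an adjusted p of 0.132 in limma. The arrays do not say which of the probes stands for the transcript.

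DHX58 encodes LGP2, a helicase that lacks the signalling domains of the other RIG-I-like receptors and modulates them. Its probe (A_23_P38346, NM_024119) read 8.18, 9.10 and 8.69 in si-Control and 9.12, 9.34 and 9.50 in si-C1GALT1-3 samples. The si-Control values were widely spread, and the highest of them nearly met the lowest si-C1GALT1-3 value. The log2 difference of 0.66 (standard error 0.27, adjusted p = 0.363 in limma) did not pass. Without si-Control replicate 1 it was 0.42.

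EIF2AK2, the gene of PKR, was measured by 2 probes with similar differences. The brighter (A_23_P142750, NM_002759) had 12.72, 13.14 and 12.70 in si-Control and 13.24, 13.31 and 13.10 in si-C1GALT1-3 samples, a log2 difference of 0.36 (standard error 0.17, adjusted p = 0.432 in limma). Its groups overlapped, because si-Control 2 lay above the lowest si-C1GALT1-3 value. The dimmer probe (A_33_P3224858, NM_001135652) had 11.21, 11.56 and 11.49 against 11.86, 11.77 and 11.83, without overlap, and a log2 difference of 0.40 (standard error 0.15, adjusted p = 0.323 in limma). Neither passed.

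ADAR, the editing enzyme, had log2 signals of 13.21, 13.61 and 13.35 in si-Control and of 13.78, 13.82 and 13.68 in si-C1GALT1-3 samples (probe A_24_P362317, NM_001111). All si-C1GALT1-3 values were above all si-Control values, the smallest gap being between si-Control 2 and si-C1GALT1-3 replicate 3. The log2 difference was 0.37 (standard error 0.15, adjusted p = 0.378 in limma) and did not pass.

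The adaptor MAVS was measured by 4 probes, which did not give 1 answer. The brightest (A_33_P3272527, NM_001206491) had 11.37, 11.50 and 11.53 in si-Control and 11.38, 11.56 and 11.71 in si-C1GALT1-3 samples. These groups overlapped almost fully, with a log2 difference of 0.08 (standard error 0.15, 95% interval -0.28 to 0.44). The other 3 probes are annotated to NM_020746 and had log2 differences of 0.50 (standard error 0.21, A_33_P3244021), 0.74 (standard error 0.29, A_19_P00319465) and -0.01 (standard error 0.31, A_33_P3244026). None of the 4 passed the threshold, and only the first of these 3 had groups that did not overlap. The sign of the brightest probe depended on the treatment of the dark region, as given above.

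TBK1, the kinase downstream of MAVS and TICAM1, had 10.85, 11.24 and 11.32 in si-Control and 11.60, 11.59 and 11.61 in si-C1GALT1-3 samples (probe A_23_P44768, NM_013254). The si-C1GALT1-3 values were close together, with an SD of 0.01 against 0.25 in si-Control, and lay above all si-Control values. The log2 difference was 0.47 (standard error 0.17, 95% interval 0.05 to 0.88), with an adjusted p of 0.316 in limma, and did not pass.

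IRF3, the factor that is present before stimulation and is activated by phosphorylation, had log2 signals of 13.10 and 13.12 in si-Control replicates 1 and 3 and of 13.52, 13.43 and 13.13 in si-C1GALT1-3 samples at its brightest probe (A_23_P27677, NM_001571). The lowest si-C1GALT1-3 value lay only just above the si-Control values, and the log2 difference was 0.25 (standard error 0.19, adjusted p = 0.626 in limma). On si-Control array 2 the same spot read 7.82 when the dark region was kept, far below the other si-Control arrays, and the log2 difference then became 2.00. The probe outside the region (A_33_P3327333, NM_001197123) had values on all 6 arrays, and its groups overlapped, with a log2 difference of 0.22 (standard error 0.16, adjusted p = 0.601 in limma). The 2 probes thus gave similar values with the region left out.

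IRF7, the factor that interferon itself induces and that amplifies the response, had 12.61 and 11.92 in si-Control replicates 1 and 3 and 13.13, 12.85 and 12.80 in si-C1GALT1-3 samples (probe A_24_P378019, NM_004031). The groups did not overlap, but the si-Control values lay further apart (SD 0.49, n = 2) than the si-C1GALT1-3 values (SD 0.18, n = 3). The log2 difference was 0.66 (standard error 0.27, 95% interval -0.05 to 1.37, adjusted p = 0.388 in limma) and did not pass. It was 0.32 without si-Control replicate 3 and 1.00 without si-Control replicate 1, each with a single si-Control value left, and passed in neither. Unlike IRF3, this probe was not dark on si-Control array 2. With the region kept it read 12.28, between the other si-Control values, and the log2 difference was 0.65.

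**Figure D3:**
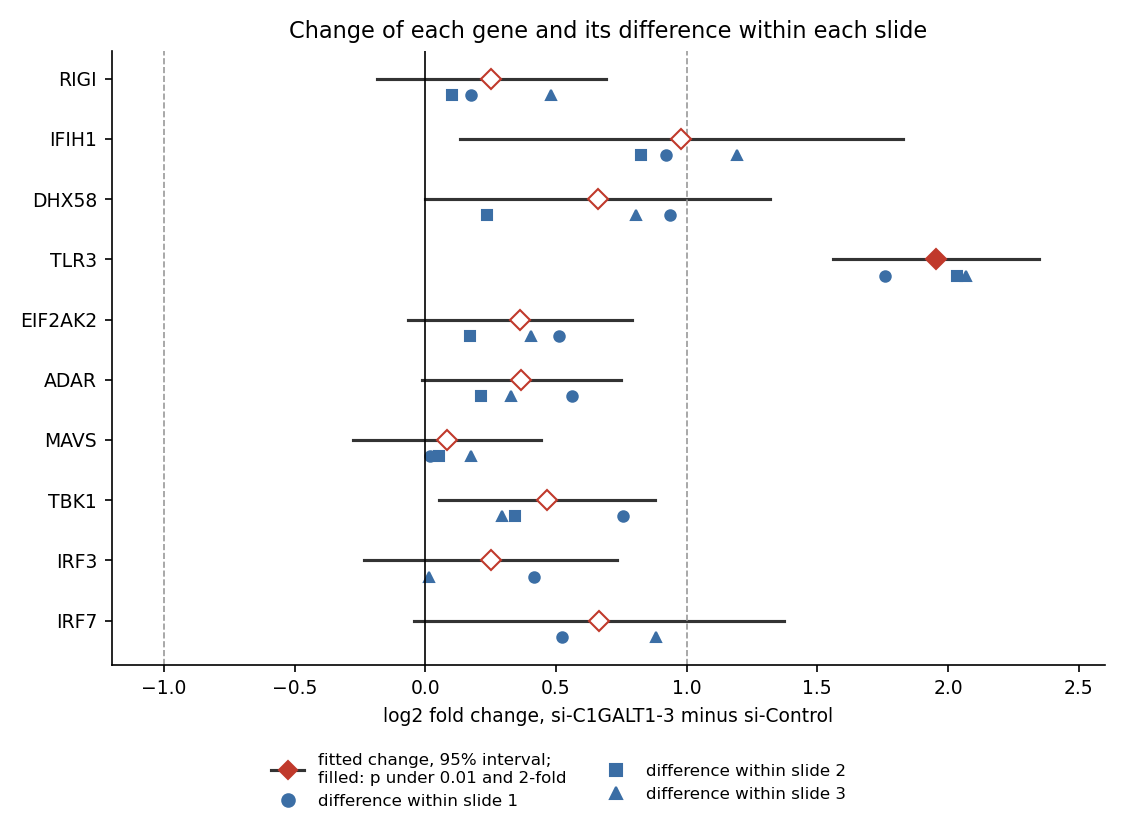
Log2 fold change of the brightest probe of each gene, si-C1GALT1-3 minus si-Control, as diamonds with 95% intervals (filled where p is under 0.01 and the change at least 2-fold), and below each the difference within each slide as blue markers. TLR3 alone lies beyond the dashed 2-fold line with its whole interval, and the within-slide differences of all genes are above 0, with no slide 2 value for IRF3 and IRF7.

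Within slides, where each si-C1GALT1-3 array is set against the si-Control array beside it, the 8 genes outside the dark region were higher on slide 1, slide 2 and slide 3 in all 8 cases. These are the arrays behind the fold changes above, and the share of all probes that were higher on every slide was not computed. TLR3 differed by 1.76, 2.03 and 2.07 on slides 1, 2 and 3. The difference on slide 2 was the smallest of the 3 for 5 of the 8 genes. This depended on the dark region even though these probes lie outside it, because the region takes part in the normalization of that array. With the region kept, normalized signals of the 8 probes on si-Control array 2 were 0.19 to 0.52 higher, and the slide 2 difference was below 0 for 5 of the 8 genes. DHX58 then had -0.27, MAVS and RIGI each -0.22, EIF2AK2 -0.05 and ADAR -0.01. TLR3 kept a slide 2 difference of 1.42, IFIH1 one of 0.60 and TBK1 one of 0.05. Without si-Control replicate 2 altogether, TLR3 differed by 1.88 on the log2 scale (standard error 0.17) and passed, and IFIH1 and DHX58 had 1.21 and 0.89 and did not.

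**Figure D4:**
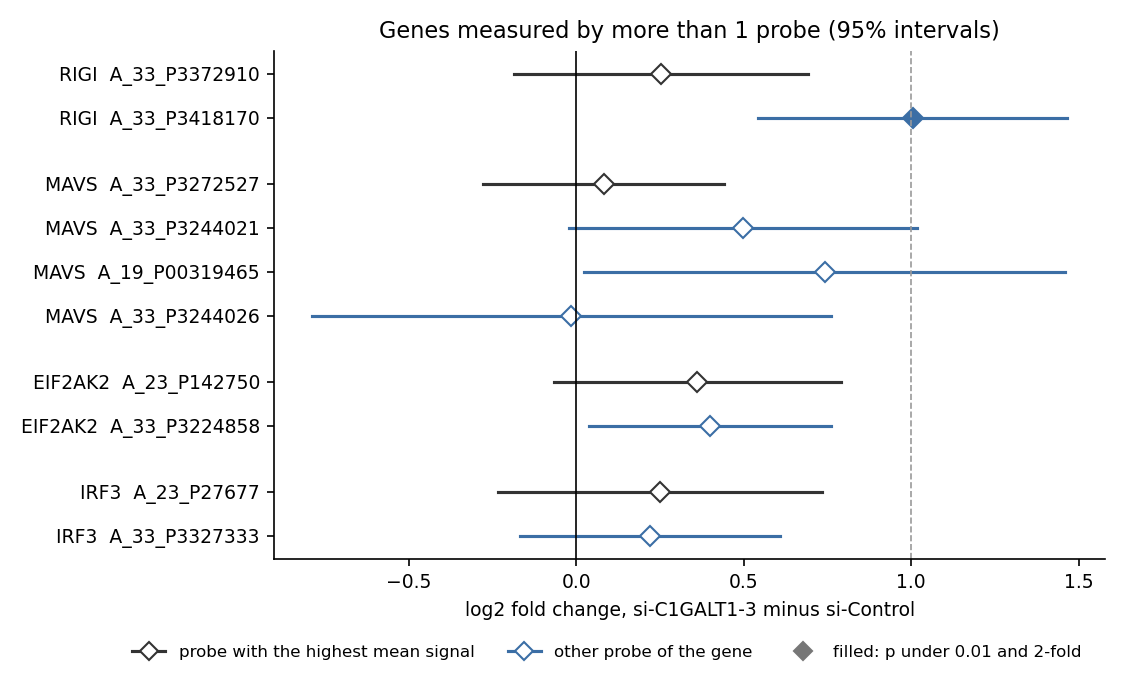
Log2 fold change with its 95% interval for each probe of the 4 genes measured by more than 1 probe, in black for the brightest probe and in blue for the others, filled where p is under 0.01 and the change at least 2-fold. The 2 RIGI probes lie at 0.25 and 1.00 and the 4 MAVS probes range from -0.01 to 0.74, while those of EIF2AK2 and IRF3 nearly coincide.

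How far the probes of a gene changed by different amounts is given for 3 pairs, as the log2 signal of a dimmer probe minus that of the brightest on each array. These pairs were picked once the values were known, and no test is given for them. For RIGI this quantity was -1.75, -0.99 and -1.56 in si-Control and -0.86, -0.42 and -0.76 in si-C1GALT1-3 samples, without overlap, and on slides 1, 2 and 3 it was higher in si-C1GALT1-3 by 0.88, 0.57 and 0.80. For MAVS, with A_19_P00319465 as the dimmer probe, it was higher by 0.94, 0.26 and 0.78 on the slides, with overlap between the groups. For EIF2AK2 the mean difference between groups was 0.04.

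The 7 genes usually counted as interferon-induced (RIGI, IFIH1, DHX58, TLR3, EIF2AK2, ADAR and IRF7) had a median log2 fold change of 0.66. The other 3, MAVS, TBK1 and IRF3, had a median of 0.25. These medians are descriptions of small lists whose members were known when they were formed.

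Around the 10 genes, the genes counted as direct outputs of IRF3 and IRF7 had the highest median of the lists. The lists were chosen with earlier results of these data known, so this rank is a description only. Whether IRF3 or IRF7 was active was not tested. Of the 12 genes of this list, 4 passed as higher and none as lower, against 466 and 299 of the 22438 named genes. The median log2 fold change of the list was 0.92, with 10 genes above 0 and 2 below. Those below were IFIT2, of the family of IFIT1 and IFIT3, at -0.13 and IFNL2 at -0.09. Both were named after their values were seen. IFIT3, an RNA-binding effector protein, changed by 1.73 (standard error 0.39, adjusted p = 0.170), and IFIT1, of the same family, by 1.33 (standard error 0.21, adjusted p = 0.102). IFNB1, interferon beta, changed by 1.49 (standard error 0.22, adjusted p = 0.0961), and RSAD2, the antiviral enzyme viperin, by 1.07 (standard error 0.26, adjusted p = 0.193), all in limma. IFNB1 rose from a mean log2 signal of 7.0 ± 0.09 to 8.49 ± 0.37 (SD, n = 3 each), well above background on all 6 arrays. These 4 genes also belong to the study's immune gene group from these arrays, so they are not independent evidence. With the dark region kept, 2 of them passed, IFNB1 and IFIT1. With the replicate number as a block 4 genes passed, IFNL3 in place of RSAD2.

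Other RNA sensors and double-stranded RNA-binding proteins moved less. Of 18, 1 passed as higher and none as lower, with a median log2 fold change of 0.15. The gene that passed was ZNFX1, a helicase that binds viral RNA and acts with MAVS, at 1.19 on the log2 scale (standard error 0.19, adjusted p = 0.107 in limma), and its groups did not overlap.

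Among the genes that work with the sensors none passed the threshold. Of the endosomal Toll-like receptors and their partners, none of 8 measured passed in limma, also none at an unadjusted p under 0.05, with a median of -0.11. For 2 of the 8, TLR8 and LY96, the probe was well above background on 1 si-Control array and on no si-C1GALT1-3 array. No value is therefore given for TLR8 and LY96, but both are counted in the median and lay below it. They too were named after their values were seen. TICAM1, the adaptor of TLR3, had a log2 difference of 0.15 (standard error 0.13) and UNC93B1, its chaperone, one of 0.15 (standard error 0.17); both were named after their values were seen. Of 11 activators of RIG-I-like receptors none passed, with a median of -0.10 and with 2 higher and 1 lower at an unadjusted p under 0.05 in limma. Across all 58195 probes, 8028 reached that p in either direction, 4287 of them as higher. Of 18 adaptors and kinases between MAVS or TICAM1 and the transcription factors none passed, with a median of 0.22 and with 6 higher and 2 lower at that p. STING1, the adaptor of cytosolic DNA sensing, was 1 of these 18 and had a log2 difference of 1.25 (standard error 0.36, adjusted p = 0.239 in limma). It passed with the replicate number as a block and did not pass with the dark region kept. CGAS, the sensor of that DNA pathway, was also 1 of the 18 and 1 of the 2 lower, at -0.74 (standard error 0.29). Both were named after their values were seen.

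Of 17 brakes on RIG-I-like receptors, MAVS and IRF3, 1 passed as higher and none as lower, with a median of 0.17. It was CYLD, a deubiquitinase, whose probe did not clearly exceed background in either group, so that no fold is given. Of 9 other interferon regulatory factors and NF-kB subunits none passed (median 0.17, with 3 higher and 1 lower at an unadjusted p under 0.05 in limma), and of 8 kinases, subunits and phosphatases of eIF2 alpha, the pathway of PKR, none passed (median 0.19, with 1 higher and 1 lower at that p). Across all 58195 probes, 8028 reached that p in either direction, 4287 of them as higher. With the dark region kept, ITCH among the brakes and PPP1R15B among the eIF2 alpha genes passed as lower, at -1.12 and -1.07. ITCH and PPP1R15B were named after their values were seen, as was CYLD.

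**Figure D5:**
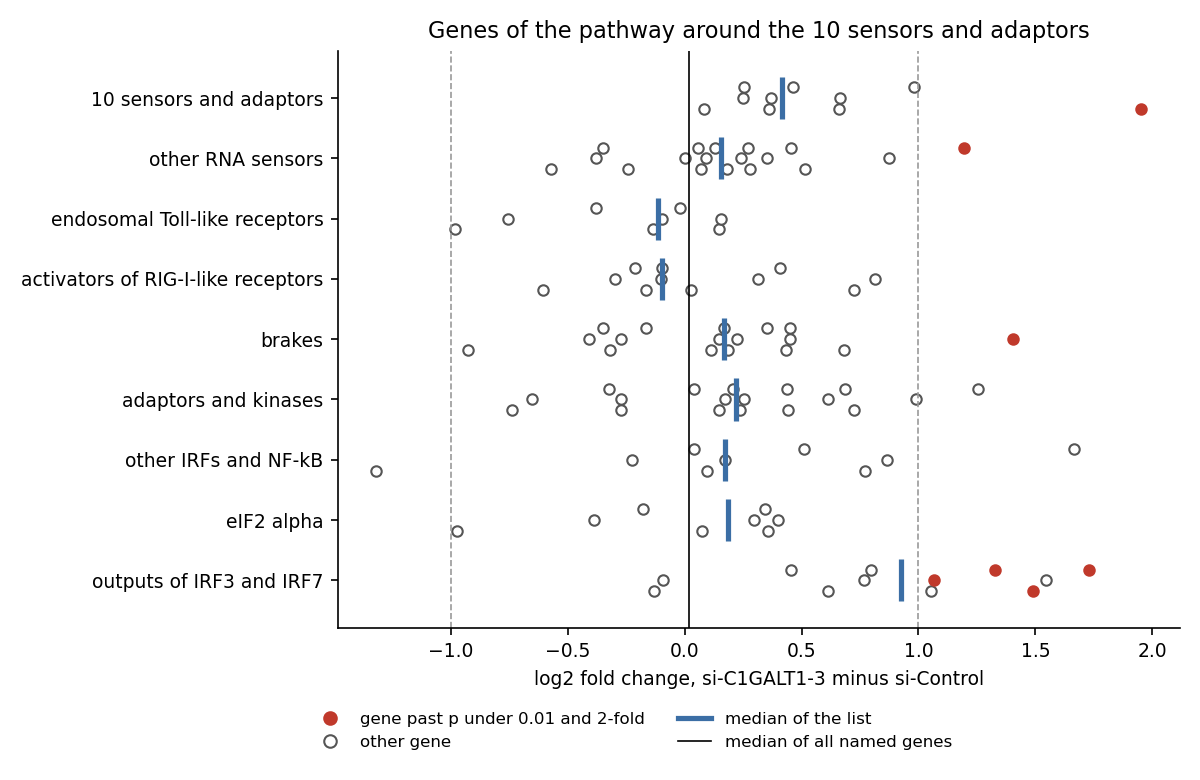
Log2 fold change of each measured gene in the 10 sensors and adaptors and in the 8 lists around them, with filled red points for genes past p under 0.01 and 2-fold, blue bars for list medians, the black line for the median of all named genes and dashed lines for 2-fold. The genes counted as direct outputs of IRF3 and IRF7 have the highest median, 0.92, followed by the sensors and adaptors with 0.42. The endosomal receptors and the activators have medians below 0. The lists were chosen with earlier results of these data known.

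Over the whole array 961 probes passed as higher and 577 as lower, so that 62.5% of the 1538 were higher. This share was 40.2% with the dark region kept, 54.1% with 75th percentile scaling, 54.3% with normexp and 72.6% with no normalization between arrays.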

How the data were processed

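The authors deposited, for each of the 6 arrays, the output of Agilent Feature Extraction version 10.5.1.1, in which each spot has a fluorescence intensity. The processed intensity has its background corrected by the software, with no normalization across arrays; a deposited table of the series holds the background-subtracted intensity. RNA came from AGS cells, 3 si-Control and 3 si-C1GALT1-3 samples, grouped by the labels.

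Log2 values were taken of the processed intensity. Control spots were left out, and spots marked as outliers (100 to 424 per array) and the dark region of si-Control replicate 2 were set to missing. Arrays were quantile normalized, spots of a probe averaged, and groups compared with limma 3.58.1 (lmFit and eBayes, constant prior) in R 4.3.3, with Benjamini-Hochberg adjustment over 58195 probes and no filter on dim probes. Probes were named through RefSeq accessions, giving 31101 probes a symbol, and the probe with the highest mean signal stands for a gene. The arrays' annotation names another build than GRCh38.p14, which is used for promoters only. The test was checked on simulated data.

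The members and lists were chosen with earlier results of these data known. Named genes are the 10 members with all probes, C1GALT1, and from each other list the genes past p under 0.01 and 2-fold, at most 4, well above background on all 3 arrays of a group; exceptions are stated. Replicate numbers mark a shared slide, and deviations from group means correlated at 0.198, 0.215 and 0.329 for replicates 1, 2 and 3 over 48794 probes. The numbers thus pair the samples. The setting used leaves this pairing out, and the replicate block is given as an alternative. Alternatives were keeping the region or the outlier spots, 75th percentile scaling, no normalization, normexp (offset 50, on the median spot signal, as the planned mean signal was not used here), the series table floored at 10, leaving out dim probes, the replicate block, a trend and robust prior, the methods' t-test, the median over probes, and leaving out each array. Figures were drawn with matplotlib 3.10.9 in Python 3.11.15.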

Additional observations from a re-analysis of the deposited data

How the results depend on the processing

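The 10 log2 fold changes were recomputed under 17 alternatives, and 168 of the 170 values kept their direction and their side of the threshold. The exceptions were MAVS, which reversed to -0.0095 with the dark region kept, and IFIH1, which passed at 1.04 with normexp. The number of genes higher was therefore 2 with normexp and 1 under the other 16 alternatives, and the number lower was 0 under all 17. The number of probes that passed on the whole array, 1538, fell to 915 with normexp and to 896 with the methods' t-test; leaving out each array in turn gave 1126 to 1781. With the replicate number as a block, 1604 probes and 1 of the 10 genes passed, and the block changed the call of none of the 10, although IFIH1 then missed only the 2-fold criterion. IRF3 went from 0.25 to 2.00 with the region kept, and RIGI reached 0.63 and MAVS 0.62 with the median over their probes. With 75th percentile scaling the median of all probes shifted to -0.107, and the median of the 10 genes was 0.48 above it, against 0.42 in the setting used. Leaving out each array in turn moved the median of the 10 genes between 0.33 and 0.51. At their brightest probes the differences of the 9 genes other than TLR3 were all under 2-fold. None of these probes could therefore pass in the setting used, whatever its p. The dimmer RIGI probe, at a log2 fold change of 1.00, did pass.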
